A study of Arabidopsis thaliana with 2 samples.

Results

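Pectin methylesterases were followed in whole Arabidopsis thaliana seedlings of 2 genotypes through the 40 genes of the family that had a probe set of their own, of 60 loci listed for the family and 13286 genes measured in all. The members were chosen by locus as genes encoding pectin methylesterases. The control genotype was wild-type Columbia-0. The other was OE-N6, a transgenic line of the same cultivar that overexpresses AT4G16790, called NHRGP by the labels. Both were 2 weeks old and were raised at 22 °C on diluted MS medium that held 2% sucrose, under days of 16 h light and 8 h dark. The sources used here do not give the promoter that drives the transgene or the number of plants in each extract, and OE-N6 is a single line. Each genotype was read on 1 Affymetrix ATH1 array, on which a set of short probes reports each transcript. With 1 array per genotype no difference below has a replicate check, no p-value or error between replicates can be had, and "higher" or "lower" describes these 2 arrays.

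Pectin is the gel-forming polysaccharide of the plant cell wall, and its homogalacturonan backbone is delivered to the wall with most of its acid groups masked by methyl esters. Pectin methylesterases remove these esters. The freed acid groups can bind calcium, which stiffens the gel, or expose the chain to polygalacturonases and pectate lyases, which cut it. Inhibitor proteins hold the enzymes in check, and subtilases, which are serine proteases, cut off the pro-domain that many of the enzymes carry. In Arabidopsis the family is large, and a group of its genes is known from pollen, where the enzymes shape the wall of the growing pollen tube.

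The arrays carried the genotype contrast and the tissue that the labels state. AT4G16790 read 91.1 in wild type and 5171 in OE-N6, at least 46.2-fold higher against the floor of 112 signal units. The floor is the 40th percentile of all deposited values, and a signal under it was raised to it before a ratio was taken, so a gene with 1 array under the floor has only a bound. The leaf genes RCA, which encodes Rubisco activase, and PRK, which encodes phosphoribulokinase, had signals between 12761 and 18082. LHCB4.2, also listed as a marker of green tissue, had 6672 in wild type and 5895 in OE-N6, a log2 ratio of -0.18. The root beta-glucosidase gene PYK10 had 15970 in wild type and 16513 in OE-N6. The root hair marker EXPA7 had 155 in wild type and 196 in OE-N6, a log2 ratio of 0.34. Of the pollen markers, ACT12 and AT5G45880 lay between 6.60 and 21.0 on both arrays. TUA1 and TUB9, tubulin genes listed as pollen markers, were well above the floor, with TUB9 at 2376 and 2819, so as a list the pollen markers were not absent. The 3' to 5' ratios of control transcripts differed in both directions, from 1.61 in wild type to 2.06 in OE-N6 for actin and from 1.16 to 1.27 for ubiquitin, but from 0.887 to 0.770 for GAPDH, and the part of RNA quality in the ratios below was not tested. For genes with several probe sets above the floor, the log2 ratios of the 2 brightest differed by a median of 0.21 over 62 genes. The 90th percentile of these differences was 0.53 and the largest was 0.89. The median is called the probe-set gap and is used below as a scale for the disagreement between probe sets within these arrays.

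Most of the measured members lay near background in these seedlings, meaning under the floor on both arrays. Of the 40 members, 26 did so, which is 65.0% of those measured against 43.9% of all genes. A further 3 members, 7.50% of those measured, were abundant, against 20.2% of all genes. Abundant means that the mean log2 signal of the arrays reached the 75th percentile of probe sets (574 signal units). The other 11 lay between. The median member ranked at the 27.5th percentile of genes by signal. The floor is a percentile of the deposited values and not a measured background, so a member near background here may still be transcribed. Probe sets differ in brightness for the same amount of transcript. A signal therefore places a gene above or below the floor and is not a measure of transcript number between genes. All 40 probe sets are of the ATH1 type whose name marks no sharing with other transcripts.

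**Figure D1:**
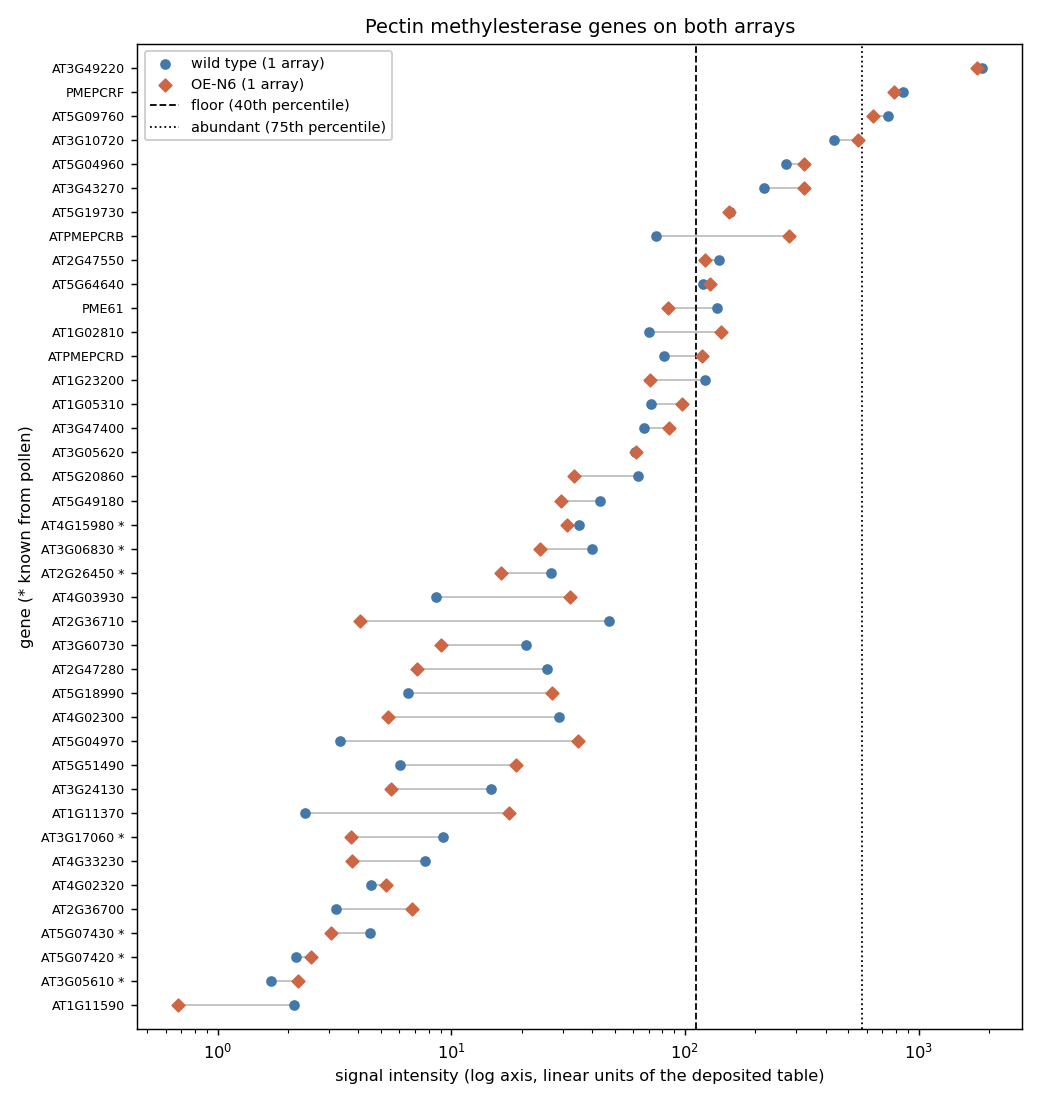
Signal intensity on a log axis for each of the 40 pectin methylesterase genes, with a circle for the wild-type array and a diamond for the OE-N6 array, ordered by mean log2 signal. The dashed line is the floor at 112 and the dotted line the level called abundant at 574. The 26 genes at the bottom lie left of the floor on both arrays, all 7 genes marked as known from pollen are among them, and ATPMEPCRB is the gene whose points lie farthest apart among those that cross the floor.

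The 3 abundant members had slightly lower signals in OE-N6. AT3G49220 is known as PME34 and as a gene that acts in guard cells when stomata respond to heat. It had the highest signal of the measured members, with 1872 in wild type and 1777 in OE-N6. It ranked at the 94.3rd percentile of genes, and its log2 ratio of OE-N6 over wild type was -0.08. PMEPCRF (AT5G53370) had 859 in wild type and 781 in OE-N6, for a log2 ratio of -0.14. AT5G09760 had 739 and 635, a log2 ratio of -0.22, the lowest value among members above the floor on both arrays. The first 2 ratios lay within the probe-set gap of 0.21 and the third just beyond it.

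Another 3 members had moderate signals that were higher in OE-N6. AT3G10720 had 436 in wild type and 552 in OE-N6, for a log2 ratio of 0.34. Its neighbour on the chromosome, the root hair gene RHS12, had no probe set listed. AT5G04960 had 270 and 324, a log2 ratio of 0.26. AT3G43270 had 219 and 324, a log2 ratio of 0.57 or a 1.48-fold difference, which was the largest among members measured above the floor on both arrays and short of 1.5-fold. Its log2 ratio was 0.60 under both quantile and loess scaling between the arrays, past 1.5-fold. These 3 ratios were larger than the probe-set gap, which is a median. Those of AT3G10720 and AT5G04960 lay under the 90th percentile of the probe-set differences, 0.53. That of AT3G43270 was just past it and under the largest difference, 0.89. Of all genes above the floor on both arrays, 4.99% lay beyond 1.5-fold in either direction.

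The remaining members above the floor on both arrays were dim and nearly equal. AT5G19730 had 156 in wild type and 155 in OE-N6. AT2G47550 had 140 and 121, a log2 ratio of -0.20, and AT5G64640 had 119 and 128, a log2 ratio of 0.10. All 3 lay within the probe-set gap. Of the 9 members above the floor on both arrays, 4 were higher in OE-N6 and 5 lower, with log2 ratios from -0.22 to 0.57. Under quantile and loess scaling 5 were higher and 4 lower, since AT5G19730 then lay just above 0, at 0.03.

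ATPMEPCRB (AT4G02330) was the member with the largest difference. The gene is also known as PME41 and has been linked in Arabidopsis to brassinosteroid signalling and chilling tolerance. Its signal was 75.1 in the wild type, under the floor, and 278 in OE-N6, where it ranked at the 64.1st percentile of genes. OE-N6 was therefore at least 2.48-fold higher (log2 ratio at least 1.31), and 1.89 on the log2 scale when no floor was set. It was the only member past 2-fold, 1 of 14 above the floor on 1 array or both, where 0.47% of 7453 genes were 2-fold higher. Among all 543 genes with exactly 1 array under the floor, 1.1% were 2-fold higher. No member was 2-fold or 1.5-fold lower, where 0.47% and 2.67% of genes were. At 1.5-fold higher the count of members was again 1, against 2.75% of genes, and it was 2, with AT3G43270, under quantile and under loess scaling. Both 1.5-fold counts depend on the floor. With none set, AT1G02810 (log2 ratio 1.03) lay past 1.5-fold higher, and PME61 (-0.70) and AT1G23200 (-0.79) past 1.5-fold lower.

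A further 4 members crossed the floor on 1 array only, with signals close to it. AT1G02810 had 70.0 in wild type and 143 in OE-N6, so its log2 ratio was at least 0.35. With no floor that ratio was 1.03, so whether this gene passes 2-fold depends on a wild-type signal near background. ATPMEPCRD (AT2G43050) had 81.6 and 118, a log2 ratio of at least 0.07. PME61 (AT3G59010), also named PME35 and known for strengthening the fibres of the stem, went the other way, with 137 in wild type and 84.5 in OE-N6, so OE-N6 was at least 1.23-fold lower. AT1G23200, known from embryo development as PME6, had 122 in wild type and 70.7 in OE-N6, at least 1.09-fold lower. With no floor the log2 ratios of ATPMEPCRD, PME61 and AT1G23200 were 0.53, -0.70 and -0.79, so the sizes of all 4 depend on the floor. Their directions could not change by construction, since the lower signal raised to the floor stays under the other one.

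Over the 14 members above the floor on 1 array or both, 7 log2 ratios were above 0 and 7 below, or 8 and 6 under quantile and loess scaling. Their median was 0.03, beside -0.02 over the 7453 genes chosen the same way. The middle 50% of the members ran from -0.13 to 0.32, and that of all genes from -0.20 to 0.16. The members above the floor were spread around 0 on these arrays, with ATPMEPCRB apart from the rest.

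**Figure D2:**
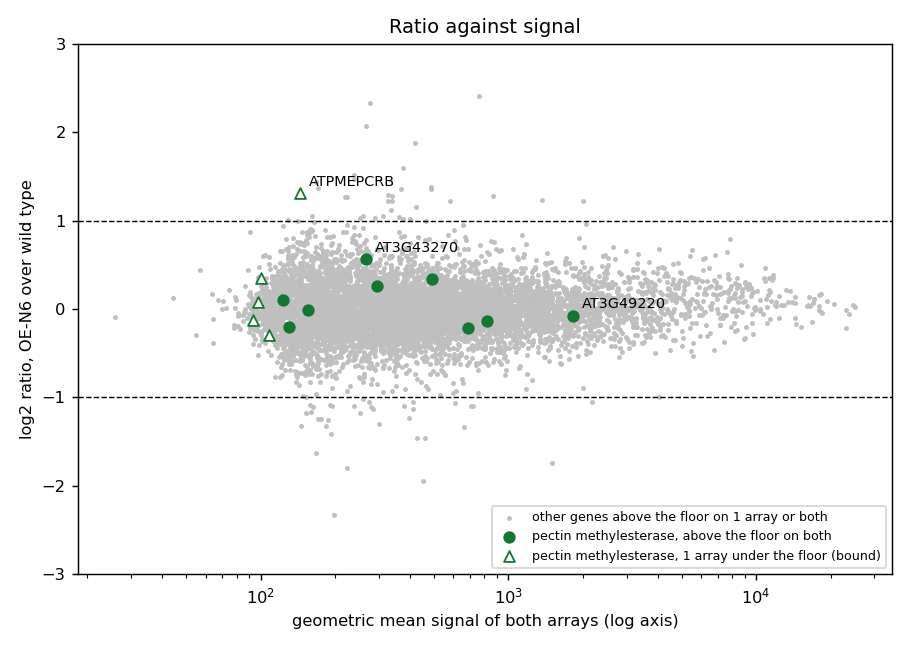
Log2 ratio of OE-N6 over wild type against the geometric mean signal of the arrays on a log axis, for genes that reached the floor on at least 1 array. AT4G16790 lies beyond the axis and is left out. Grey points are the other genes, filled circles the 9 pectin methylesterases above the floor on both arrays, open triangles the 5 with 1 array under it (bounds), and dashed lines mark 2-fold. ATPMEPCRB, at 1.31, is the only member beyond a dashed line, and AT3G43270 follows at 0.57.

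The members known from pollen were all near background. The list of such genes held 12 loci, of which 7 had a probe set of their own. All 7 were under the floor on both arrays, where 43.9% of all genes were. Their signals ran from 1.70 to 39.9 in the wild type, with a median of 9.18, and from 2.22 to 31.3 in OE-N6, with a median of 3.72. AT3G06830, AT4G15980 and AT2G26450 were the brightest of them, at 39.9, 35.1 and 26.7 in the wild type. AT3G05610 was at 1.70 and 2.22, and the neighbouring genes AT5G07420 and AT5G07430 lay between 2.17 and 4.49 on both arrays. A probe set shared by PPME1, which encodes a pollen-tube enzyme, and AT5G07410 read 0.998 in wild type and 2.00 in OE-N6. Another probe set, shared by VGD1 (needed for pollen tube growth through the style) and VGDH1, read 2.54 and 4.87. For comparison, 3 control probe sets for a bacterial trp transcript ran from 0.772 to 19.9, and the lowest signal among the other 42 bacterial and phage control probe sets was 83.8.

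Members not known as pollen genes were also often near background. Of the 33 others with a probe set, 19 were under the floor on both arrays, where 43.9% of all genes were. AT1G05310 was the brightest of the 26 near background, with 71.4 in wild type and 96.7 in OE-N6, and AT1G11590 the dimmest, with 2.12 and 0.673. AT5G49180, known as PME58 from the mucilage of the seed coat, had 43.4 and 29.5. In 14 of the 26 the OE-N6 signal was the lower one and in 12 the higher. Their ratios are not read as differences, since no signal under the floor is told apart from background here. AT2G36710, for example, had 47.1 in wild type and 4.08 in OE-N6, and AT5G04970 had 3.35 and 34.9, both far under the floor on either array. In whole seedlings fewer cells of a type that uses a gene and less RNA per cell cannot be told apart.

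Several members sit next to one another on the chromosome, and neighbours did not all share a level. The 60 loci include 12 runs of adjacent genes, and in 5 of these at least 2 genes had probe sets of their own. AT5G04960 was above the floor, at 270 and 324, while the adjacent AT5G04970 was under it. ATPMEPCRB likewise stood above the floor in OE-N6 while the adjacent AT4G02320 had 4.51 in wild type and 5.26 in OE-N6. In the other 3 runs, AT2G36700 with AT2G36710, AT3G05610 with AT3G05620, and AT5G07420 with AT5G07430, every measured gene was near background.

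Of the 20 loci without a probe set of their own, 4 were on the 2 shared probe sets above and 16 were not listed in the annotation used here. Among these 16 are PME3, known as a broadly expressed enzyme and from nematode and fungal infection, PME5, known from organ formation at the shoot apex, PME2, and AT2G45220, known as PME17 and as a root enzyme. They were not analysed here, so the counts above do not cover the whole family.

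Among the proteins that act on the enzymes 1 gene, SBT3.5, was 2-fold higher, where 0.47% of all genes were. Of 3 subtilases listed as known to process or act beside pectin methylesterases, SBT3.5, known in roots to release the mature PME17, had 265 in wild type and 537 in OE-N6, which is 2.03-fold higher (log2 ratio 1.02). S1P, a Golgi protease that processes these enzymes, had 309 and 292. ARA12, the subtilase needed for mucilage release, had 2687 and 2999, a log2 ratio of 0.16. Of 10 listed inhibitor genes 6 had a probe set of their own in the annotation used here. Of these, 5 were above the floor, 2 of them higher and 3 lower in OE-N6, around a median of -0.01 on the log2 scale. AT4G25260, known as PMEI7 and as an inhibitor of PME3, was the brightest, with 879 in wild type and 797 in OE-N6. AT3G47380 had the highest ratio, with 119 and 150 (0.34), and AT1G62770, known as PMEI9 from roots, the lowest, with 642 and 491 (-0.39). No inhibitor above the floor passed 1.5-fold. The inhibitor gene AT4G25250 had 57.7 in wild type and 109.5 in OE-N6, under the floor on both arrays, so its ratio was not read.

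Among listed genes that cut, modify or make pectin, those measured above the floor had ratios within 1.5-fold. Many had no probe set of their own in the annotation used here. The counts of genes with a probe set below describe that annotation and not what the array carries. Of 16 listed pectate lyase genes 15 had a probe set and 9 were above the floor, with 5 abundant and a median log2 ratio of -0.01. AT4G24780 was the brightest, at 2807 in wild type and 3037 in OE-N6. Among pectate lyases above the floor on both arrays AT3G24670 had the highest log2 ratio, 0.41, and AT5G63180 the lowest, -0.27. Of 7 polygalacturonase genes 3 had a probe set, and only AT1G48100 crossed the floor, with 128 in wild type and 86.8 in OE-N6. Of 11 listed pectin acetylesterase genes, whose enzymes remove acetyl groups, 5 had a probe set and 4 were above the floor. AT1G57590 had their highest ratio (0.51), AT3G09410 the lowest (-0.21), and AT3G05910 was the brightest, at 525 and 630. Of 4 listed pectin methyltransferase genes only 1 had a probe set. This was AT3G49720, known as CGR2, which adds the esters that the family removes, with 1591 in wild type and 2080 in OE-N6. Its log2 ratio was 0.39. Of 15 listed galacturonosyltransferase genes, the family that builds the homogalacturonan chain, only GAUT15 had a probe set, with 190 in wild type and 158 in OE-N6. Across the 7 classes 34 of 66 listed genes had a probe set and 24 were above the floor, of which 12 were higher and 12 lower. Under quantile scaling 14 were higher and 10 lower. Under loess 25 genes were above the floor, 15 of them higher and 10 lower. The median log2 ratio was -0.0014 without further scaling and 0.02 and 0.03 under those settings. Of the genes above the floor only SBT3.5 was past 1.5-fold, where 2.75% of all genes were 1.5-fold higher and 2.67% lower. These class counts were not taken with other floors. AT4G25250 and the polygalacturonase gene ADPG1 (50.9 in wild type and 80.0 in OE-N6) lay under the floor on both arrays, so neither gave a ratio.

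**Figure D3:**
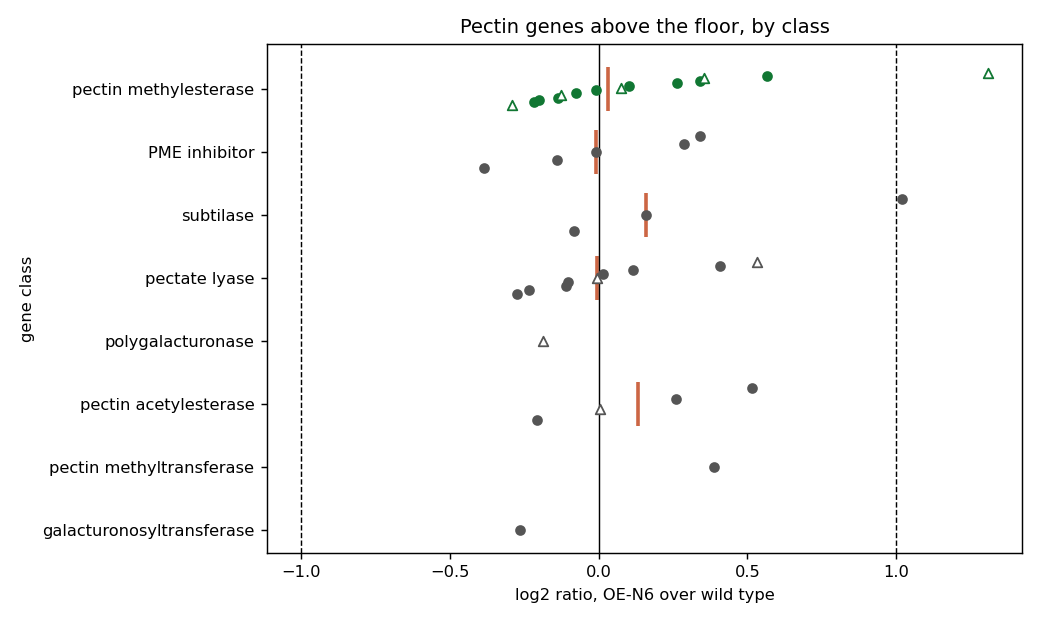
Log2 ratio of OE-N6 over wild type for each gene above the floor, by class. Filled circles are genes above the floor on both arrays, open triangles bounds with 1 array under the floor, and vertical bars the class median where a class has at least 3 such genes. ATPMEPCRB (at least 1.31) and SBT3.5 (1.02) are the only points beyond the dashed lines at 2-fold.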

How the data were processed

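The deposited table gives linear signal intensity for every probe set on each array, and the authors' tool is MAS5 per the submitters' processing notes. The sources used here do not give its version or settings, and no detection calls were used. The table holds 22810 probe sets, 64 of them controls, and the median of the others was 190 on both arrays. Total RNA (6 µg) was labelled with biotin, per the labels' protocols.

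Probe sets with 1 gene in the platform annotation were matched by gene identifier to the RefSeq table of assembly TAIR10.1, used for names and neighbours only, which gave 13286 genes. The probe set with the highest mean signal stood for a gene. Before the log2 ratio, the 40th percentile of all deposited values was set as a floor. Calls were made at 2-fold, with 1.5-fold beside them. Named were all members above the floor on 1 array or both, the brightest and dimmest of the rest, and the highest, lowest and brightest gene of each pectin class. Further members near background were named for their known site or their neighbours, and PMEs without a probe set for their known roles. Members and lists were chosen with earlier results of these data known. The list rule also allowed genes to be added by description, but the table used has none. The ratio step was also run on simulated data, with changes planted only in genes above the floor on both arrays. That run therefore did not check the bounds of genes with 1 array under the floor, such as ATPMEPCRB. Alternatives were 3 scalings between arrays, other floors, filters and thresholds, a pseudocount and the mean over probe sets. The number of arrays limits the precision. Sequences were not used here. The work was done in Python 3.11.15 (pandas 2.3.3, numpy 2.4.6, matplotlib 3.10.9, and statsmodels 0.14.6 for loess).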

Additional observations from a re-analysis of the deposited data

How the results depend on the processing

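The 26 members near background and the 3 abundant ones were the same in number under median, quantile and loess scaling. Each member had 1 probe set, so the mean over probe sets could not change these counts. With the floor at the 25th percentile 20 members were near background, with the 50th percentile as background 33, and at the 90th percentile 1 member was abundant. The count of members 2-fold higher was 2 with the floor at the 25th percentile and 2 without a floor, where AT1G02810 joined ATPMEPCRB at a log2 ratio of 1.03 by the alternative's own construction, and 0 at 3-fold. The count of members 1.5-fold higher, whose scaling alternatives were chosen after seeing the data, was 1 under median scaling and 2 under quantile and loess scaling. The count of members 2-fold lower was 0 under every alternative run. The median log2 ratio of members above the floor lay between -0.14, with only the 3 brightest members left, and 0.06. Over all probe sets, named or not, 69 were 2-fold higher and 67 lower, against 35 and 35 genes, since more probe sets are counted. ATPMEPCRB kept a log2 ratio between 1.31 and 1.89 and SBT3.5 one between 1.02 and 1.07 under the scaling and floor alternatives. No paired analysis was possible because only 1 array was made per genotype. Low signal limits the data, since 26 of 40 members give no ratio.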
